A study of Rattus norvegicus with 12 samples.

Results

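Nociceptor channels and sensory neuropeptides were examined as a set of 10 genes in fetal rat pituitaries. The genes are Trpv1, Scn9a, Scn10a, Scn11a, P2rx2, P2rx3, Calca, Calcb, Tac1 and Adcyap1, and they were taken by gene name, without regard to their values. They were read by 14 of the 30367 probes of the array, with 2 probes each for Trpv1, P2rx2, Calca and Tac1 and 1 probe for each of the other 6. All 10 genes passed the filter on dim probes and were among the 19350 genes tested. The probe used for a gene was its brightest, and it lay well above background on all 12 arrays for 9 of the 10, the exception being Trpv1 with 9 arrays.

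The series asks how dioxin given to the mother affects pituitary messenger RNA in the fetus. It holds 4 groups of 3 one-colour arrays, all from Wistar fetuses taken on gestational day 18: males exposed to TCDD, control males, females exposed to TCDD and control females. TCDD is 2,3,7,8-tetrachlorodibenzo-p-dioxin, which activates the aryl hydrocarbon receptor. Dose, day of dosing, vehicle, litter and the number of glands behind an array are not given in the labels, so p-values measure only the spread between these samples.

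Nociceptors are the sensory neurons that report painful heat, acid, pressure and tissue damage. Their cell bodies lie in the dorsal root and trigeminal ganglia, and they are not a cell type of the pituitary. Their endings carry ion channels that turn a stimulus into a current, sodium channels that turn the current into impulses, and peptides that are released on impulse and act on blood vessels and spinal neurons.

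Levels are given as log2 of the processed intensity relative to the 75th percentile of the same array, so a level of 0 is the brightness that 3 in 4 probes do not reach and no probe's level is set against that of another probe. Exposure was visible on every exposed array: Ahrr, the repressor of the aryl hydrocarbon receptor, lay between -0.22 and 0.68 on the 6 TCDD arrays, against -6.26 to -4.98 on the 6 control arrays. Cyp1a1, a cytochrome P450 induced through that receptor, was well above background on all 6 TCDD arrays and on 0 control arrays. Between 75.1% and 78.4% of the 42877 spots of an array passed as well above background, and 0 spots were saturated. The arrays fell apart in Avil, which encodes an actin-binding protein of sensory ganglion neurons and is no member of the set. Its level ran from 0.18 to 1.63 on 6 arrays, against -3.68 to -3.32 on the 6 others. The arrays of high Avil were male TCDD 1 and 2, female TCDD 1 and 3, male control 2 and female control 2, which makes 4 of 6 exposed arrays and 2 of 6 control arrays. Each sex had 2 exposed arrays and 1 control array of high Avil, and each of the 3 slides held 2 of them among its 4 arrays. Male TCDD 1 stood apart from the rest: it had the highest Avil level, and Avp, the gene of vasopressin, lay at -1.85 there and at most at -5.57 on the other 11. Of the 17 anterior pituitary markers listed, all 17 passed the filter, and 16 of them had a value on every array. The intensity of these 16 was summed, as log2 relative to the same percentile. It lay between 5.18 and 6.74 on the arrays of high Avil and between 6.29 and 6.92 on those of low Avil. The sum leaves out Pomc, so it is no total of the list. Pomc by itself reached 7.00 on an array of low Avil and was at least 5.74 on those of high Avil.

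Probe sequences are shown first where the reading of a gene depends on them. Calca makes calcitonin or calcitonin gene-related peptide (CGRP) from alternative transcripts. The files assign its probes to transcript variants 1 and 2 and do not say which peptide each encodes. The names calcitonin for variant 1 and CGRP for variant 2 are background knowledge of this gene, and the probes are called by them here. The first 30 bases of each are printed. The CGRP probe belongs to transcript variant 2 and lies at chr1:172686203-172686262 on the minus strand of rn4, and the calcitonin probe belongs to variant 1 and lies at chr1:172688192-172688251 on the same strand.
Calca CGRP probe: tgtgactcaatggaaccatatgcttaaaga
Calca calcitonin probe: atgggttactttcatgaggcaaaggatggt

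The dimmer probe of Tac1 is shown because it covers the part of the transcript that codes for substance P, a peptide that signals pain in the spinal cord. Capitals mark the codons of that peptide, bases 13 to 45 of the probe, which lies at chr4:32651286-32651345 on the plus strand of rn4.
Tac1 probe: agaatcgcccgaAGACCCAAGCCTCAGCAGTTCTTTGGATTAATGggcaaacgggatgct

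The probe used for Trpv1, the receptor of capsaicin and noxious heat, is shown because its detection flag varied among the arrays. It lies at chr10:60134611-60134670 on the plus strand of rn4, and it carries no capitals.
Trpv1 probe: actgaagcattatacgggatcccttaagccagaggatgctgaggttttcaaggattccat

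The other probes used lie on rn4 at chr3:48438851-48438910 for Scn9a, chr8:124578227-124578286 for Scn10a, chr8:124724494-124724553 for Scn11a and chr3:68228045-68228104 for P2rx3, all on the minus strand. Those of P2rx2 at chr12:46488004-46488063, Calcb at chr1:172780881-172780940 and the brighter Tac1 probe at chr4:32657551-32657610 are on the plus strand. The probe of Adcyap1 is placed on an unassigned part of chromosome 9. Whether a probe lies in an exon or an untranslated region was not analysed here.

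On the arrays of high Avil, 9 of the 10 genes were higher than on every array of low Avil, and P2rx2 was the gene whose sets overlapped. The gap between the lowest high array and the highest low array was between 1.19 and 4.40 on the log2 scale over those 9 genes. Over all genes, 7.92% were higher and 7.85% lower without overlap. The median difference between the sets was 3.55 over the 10 genes and -0.13 over 19318 genes, of which 298 (1.54%) differed by more than 2. Because the arrays were divided by a measured value, these differences are a description and carry no test. In bulk tissue, more or fewer neurons in a sample cannot be told apart from more or less RNA per neuron.

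**Figure D1:**
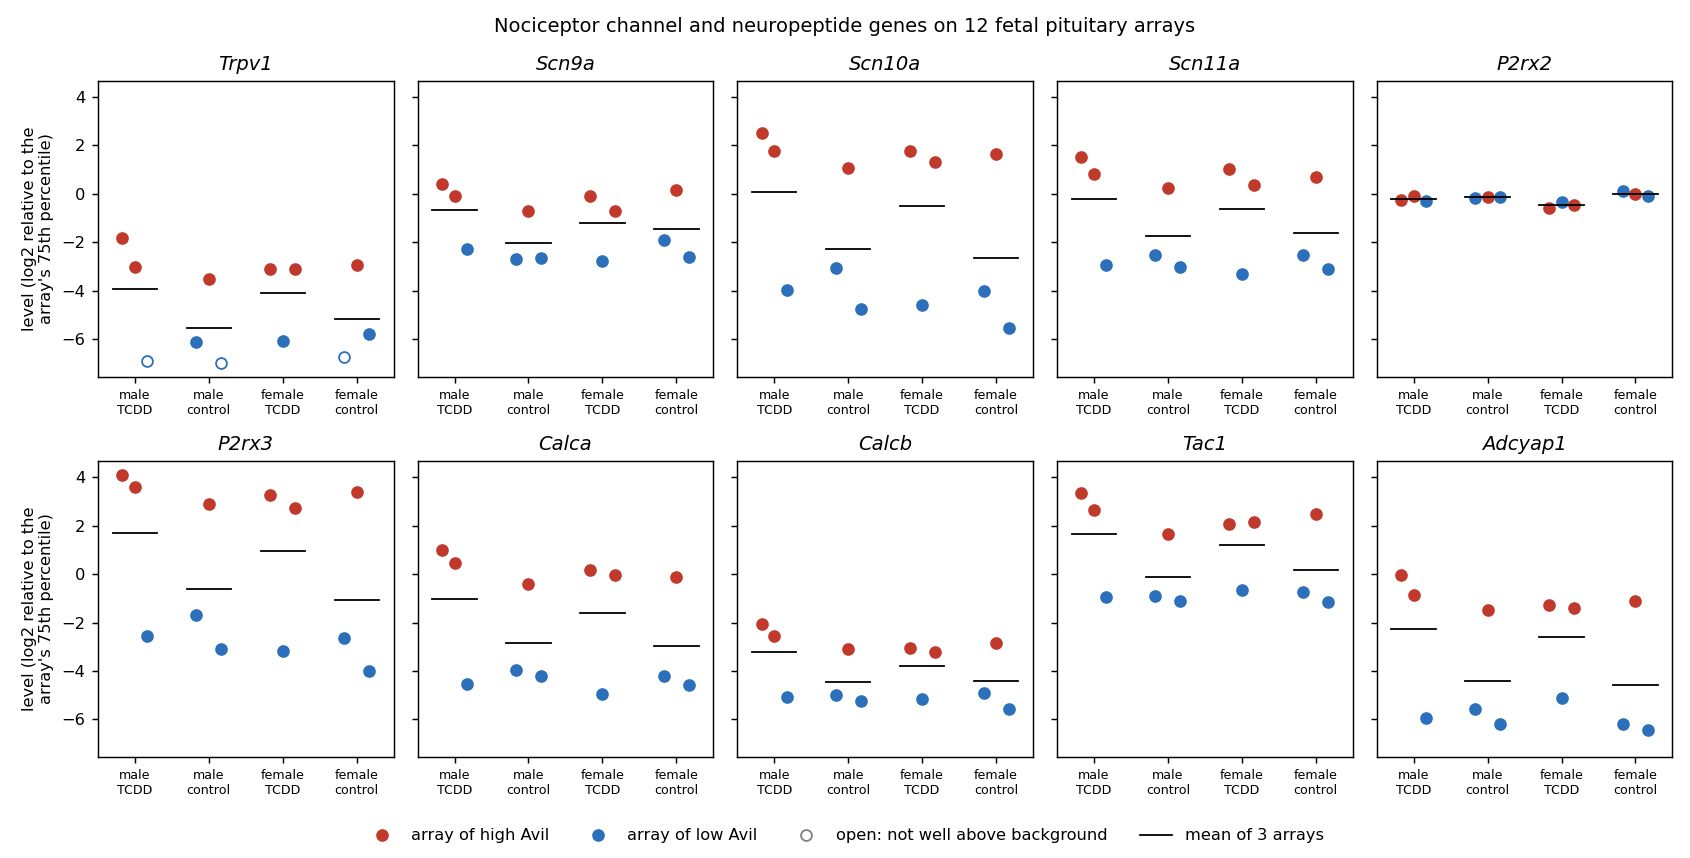
Level of each of the 10 genes (log2 relative to the 75th percentile of the array) on the 12 arrays, by group, with the mean of 3 arrays as a bar; red points are arrays of high Avil, blue points arrays of low Avil, and open points were not well above background. Red and blue points do not overlap for 9 genes, with both colours in every group, and P2rx2 stays within -0.57 to 0.14.

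Trpv1 is the heat and capsaicin channel. Its level was -1.81, -3.01 and -6.92 in exposed males 1, 2 and 3, against -6.13, -3.53 and -6.99 in control males 1, 2 and 3. In females it was -3.11, -6.08 and -3.10 in exposed 1, 2 and 3, against -6.73, -2.94 and -5.78 in controls 1, 2 and 3. The 6 arrays of high Avil were the 6 highest, and 3 of the low ones (male TCDD 3, male control 3 and female control 1) were not well above background. The median was -3.06 on the high arrays and -6.43 on the low ones, a 10.4-fold difference. The second Trpv1 probe was well above background on 1 of the 6 arrays of low Avil and would not have passed the filter on those alone. Its medians differed 10.9-fold, with low values that were mostly not well above background, so this fold carries no weight of its own.

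The sodium channels Scn9a (Nav1.7), Scn10a (Nav1.8) and Scn11a (Nav1.9) set the threshold and carry the impulse of nociceptors. Scn10a was 2.50, 1.77 and -3.99 in exposed males, against -3.08, 1.06 and -4.77 in control males. It was 1.79, -4.57 and 1.30 in exposed females, against -4.01, 1.65 and -5.56 in control females. Each group thus held arrays on both sides of a gap of 4.14. The medians of the 2 sets, 1.71 and -4.29, differed 64.0-fold, and this difference ranked 8 among 19318 genes. Scn11a lay between 0.26 and 1.54 on the arrays of high Avil and between -3.29 and -2.50 on those of low Avil, a 13.2-fold difference of medians. Scn9a lay between -0.72 and 0.39 on the high arrays and between -2.78 and -1.91 on the low ones, a 5.79-fold difference. Scn9a had the narrowest gap of the 9 genes.

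P2rx3 and P2rx2 encode ATP-gated channel subunits, which can join in a mixed channel on sensory endings. P2rx3 was 4.11, 3.59 and -2.56 in exposed males, against -1.68, 2.88 and -3.09 in control males. It was 3.29, -3.18 and 2.72 in exposed females, against -2.64, 3.38 and -3.99 in control females. The arrays of high Avil again formed the upper set, here with a gap of 4.40. The medians, 3.33 and -2.86, differed 73.3-fold, which ranked 4 among 19318 genes. P2rx2 did not divide the arrays in this way. It was -0.27, -0.07 and -0.29 in exposed males, against -0.18, -0.12 and -0.12 in control males. It was -0.57, -0.33 and -0.47 in exposed females, against 0.14, -0.01 and -0.09 in control females. Its medians were -0.20 on the arrays of high Avil and -0.15 on those of low Avil, and the second probe differed by -0.08. P2rx2 was well above background on all 12 arrays, also where P2rx3 was low.

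Among the neuropeptides, Tac1, the precursor of substance P and neurokinin A, was 3.34, 2.63 and -0.95 in exposed males, against -0.90, 1.64 and -1.12 in control males. It was 2.08, -0.65 and 2.13 in exposed females, against -0.76, 2.47 and -1.14 in control females. Its low arrays lay within 0.49 of each other, and the medians of 2.30 and -0.93 differed 9.38-fold. The probe over the substance P codons, printed above, gave 10.5-fold. Adcyap1, the precursor of the peptide PACAP, was -0.04, -0.85 and -5.93 in exposed males, against -5.56, -1.48 and -6.21 in control males. It was -1.28, -5.12 and -1.39 in exposed females, against -6.20, -1.10 and -6.44 in control females. The arrays of high Avil were the upper 6 once more, 29.3-fold above the others by the medians. Calcb, the gene of the second CGRP, lay between -3.21 and -2.08 on the high arrays and between -5.56 and -4.90 on the low ones, a 4.42-fold difference.

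Calca was read differently by its probes. The CGRP probe was 0.99, 0.46 and -4.52 in exposed males, against -3.96, -0.39 and -4.20 in control males. It was 0.19, -4.95 and -0.04 in exposed females, against -4.21, -0.11 and -4.59 in control females. Its sets did not overlap, and their medians differed 21.7-fold. The calcitonin probe was well above background on 5 of the 12 arrays, 2 of high and 3 of low Avil, and lay between -7.54 and -5.93 throughout. Its median was -6.81 on the arrays of high Avil and -6.37 on those of low Avil, a difference of -0.44. The 21.7-fold difference was thus read by the variant 2 probe alone, while the variant 1 probe lay near or below the background limit on all arrays.

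**Figure D2:**
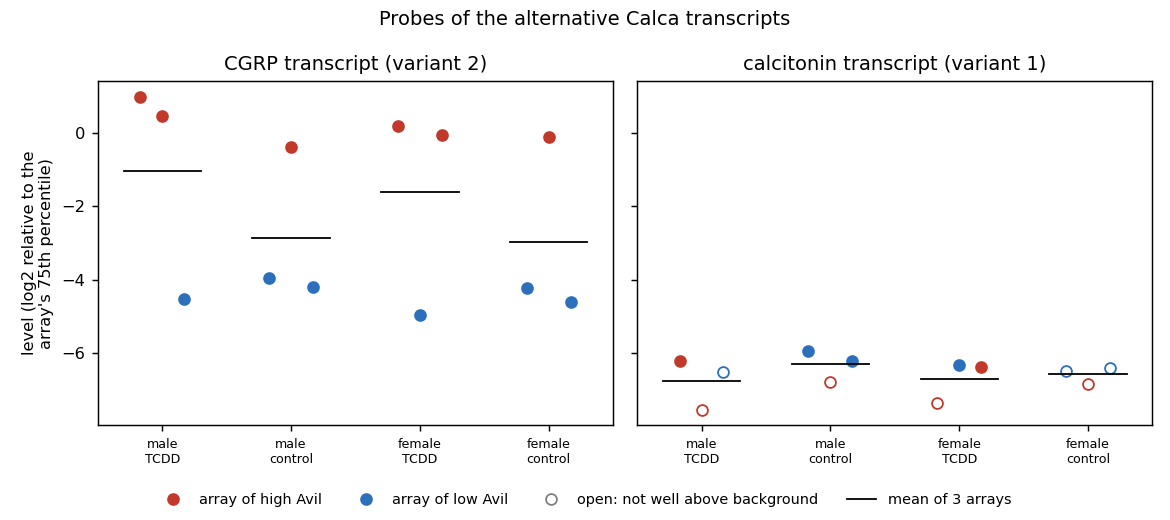
Level of the Calca probes for transcript variant 2, named CGRP (left), and variant 1, named calcitonin (right), in log2 relative to the 75th percentile of the array, by group; bars are means of 3 arrays and open points were not well above background. The CGRP probe divides the arrays of high Avil (red) from those of low Avil (blue), and the calcitonin probe stays between -7.54 and -5.93.

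The 6 arrays of high Avil also differed among themselves. Male TCDD 1, the array of highest Avil, was the highest of all 12 for 9 of the 10 genes. The lowest Avil of the 6, 0.18, was that of female TCDD 3, which was lowest of the 6 for P2rx3 and Calcb, while male control 2, with an Avil level of 0.34, was lowest for 7 genes. The level of P2rx3 on these arrays had a standard deviation of 0.50, and its difference from Avil had 0.04, with a range of 0.09. Subtracting Avil made the spread smaller for 9 of the 10 genes, to between 0.04 and 0.30, while for P2rx2 the spread was 0.53 after subtraction and 0.23 before it. These arrays share the sample that both values come from, so this is a description of the arrays.

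**Figure D3:**
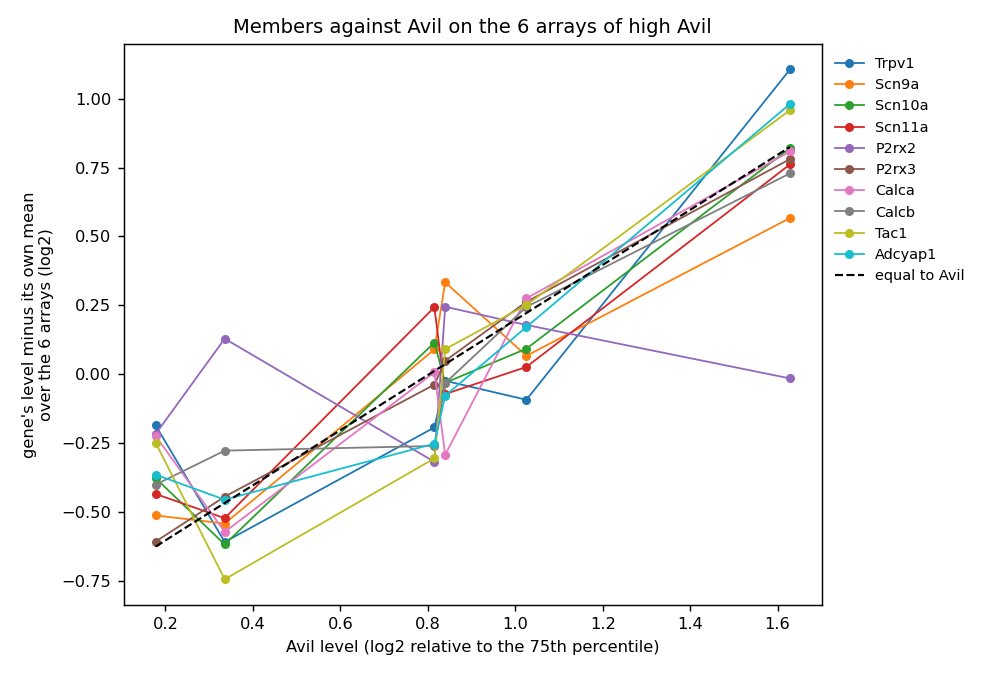
Level of each gene minus its own mean over the 6 arrays of high Avil (log2), against the level of Avil on the same array (log2 relative to the 75th percentile); the dashed line marks equal movement. P2rx3 lies along the line, 9 genes are highest on the array of highest Avil, and P2rx2 is not.

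For TCDD against control over both sexes, 9 of the 10 genes had a positive difference and P2rx2 a negative one, and limma called 0 of them at an adjusted p below 0.05. Over all genes the fit called 4 of 19350 (0.0207%), which were Ahrr, Cyp1a1, Nqo1 and Ihh, all higher with TCDD. At an unadjusted p below 0.05 there were 1250 genes, among them P2rx2 as 1 of the 10. The median difference was 1.37 over the 10 genes and -0.02 over all genes. The differences were 2.25 for Scn10a (standard error 1.77, limma adjusted p = 0.672), 2.18 for P2rx3 (1.83, 0.683) and 2.06 for Adcyap1 (1.41, 0.670). They were 1.60 for Calca, 1.40 for Tac1, 1.34 for Trpv1, 1.28 for Scn11a, 0.92 for Calcb and 0.81 for Scn9a, with standard errors between 0.69 and 1.36. Leaving out 1 array moved the difference of P2rx3 between 1.46, without female control 3, and 3.30, without female control 2, and that of Scn10a between 1.52 and 3.32 on leaving out the same arrays. For Tac1 it lay between 0.98, without male TCDD 1, and 2.06, without male TCDD 3. The 95% intervals of these 9 all held 0, and that of P2rx3 ran from -1.88 to 6.24. Every group held arrays of both sets, and for the 9 genes the exposed and control arrays overlapped in each sex.

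The size of these differences depended on the arrays of high Avil. Over the 6 arrays of low Avil alone, the TCDD difference over both sexes was -0.03 for P2rx3, 0.07 for Scn10a, 0.58 for Adcyap1, 0.18 for Tac1, 0.08 for Calcb, -0.06 for Scn9a, -0.09 for Trpv1, -0.33 for Scn11a and -0.50 for Calca. Over the 6 arrays of high Avil alone it was between 0.16 for Scn9a and 0.65 for Calca for these 9 genes. With Avil as a covariate it lay between -0.26 for P2rx3 and 0.18 for Adcyap1. Within the slides the differences were larger: with slide as a block they were 4.91 for Scn10a, 4.83 for P2rx3 and 4.11 for Adcyap1, and limma called 0 of the 10 genes. In males that fit gives the value within slide 1, where male TCDD 1, an array of high Avil, stood alone against 3 control males. In females it gives the value within slide 3, where 3 exposed females stood against female control 3, an array of low Avil.

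**Figure D4:**
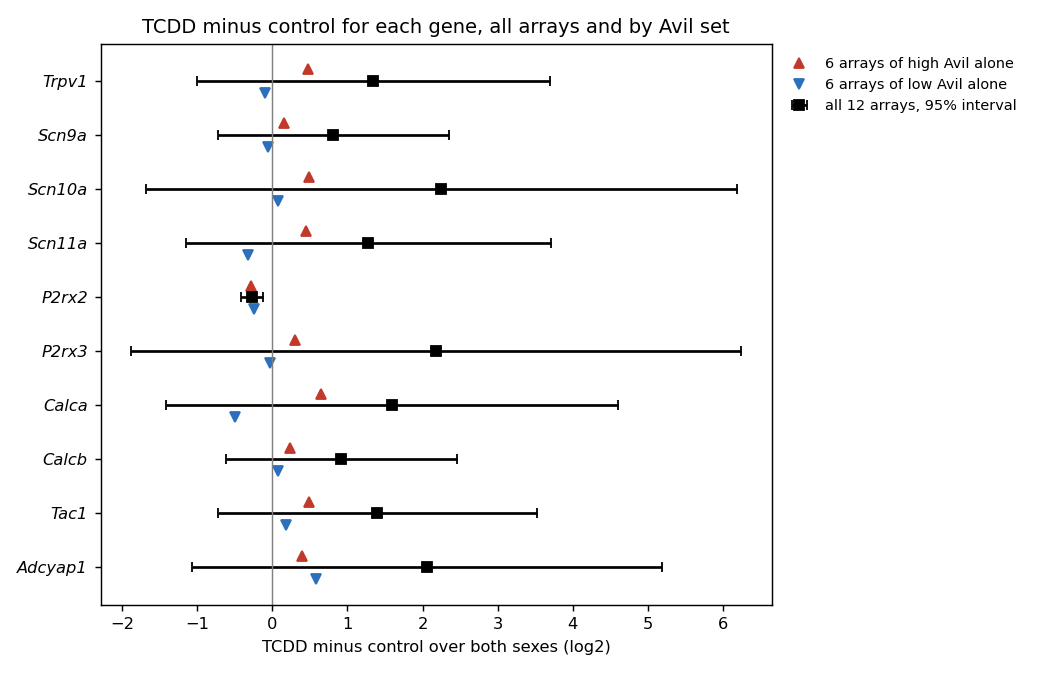
Difference of TCDD minus control over both sexes (log2) for each of the 10 genes; black squares with 95% intervals come from all 12 arrays, red triangles from the 6 arrays of high Avil and blue triangles from the 6 of low Avil. The intervals of 9 genes hold 0 and their coloured points lie nearer to 0 than the squares, while the 3 values of P2rx2 lie between -0.28 and -0.25.

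In males the TCDD difference was positive for 9 genes, between 1.21 for Calcb and 2.36 for Scn10a, and limma called 0 of the 10, against 2 of 19350 genes (0.0103%). At an unadjusted p below 0.05 there were 1807 genes in males and 0 of the 10. P2rx3, for example, averaged 1.71 ± 3.71 in exposed males and -0.63 ± 3.12 in control males (SD, n = 3 each), so the difference of 2.34 was smaller than either spread. It was 1.11 without male control 3 and 4.48 without male TCDD 3. Of all genes, 8.4% lay higher and 6.04% lower in males with no overlap of the groups, and 0 of the 10 genes did either. Among the male arrays of high Avil, both exposed arrays lay above the control array for the 9 genes other than P2rx2, by 0.76 to 1.35 in the mean. With 2 exposed arrays and 1 control array, 36.8% of all genes lay higher in this way and 37.6% lower, and male TCDD 1 is among the exposed arrays.

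In females the difference was positive for the same 9 genes, between 0.26 for Scn9a and 2.15 for Scn10a, and limma called 0 of the 10, against 2 of 19350 genes (0.0103%). At an unadjusted p below 0.05 there were 518 genes in females, P2rx2 among them. P2rx3 averaged 0.94 ± 3.58 in exposed females and -1.08 ± 3.92 in control females (SD, n = 3 each), and the difference was 0.57 without female control 3 and 4.25 without female control 2. Among the female arrays of high Avil, both exposed arrays lay below the control array for 7 genes, P2rx2 among them, and above it for Calca, against 36.4% of all genes lower and 33.0% higher. Tac1, for example, averaged 2.11 on the exposed and 2.47 on the control female arrays of high Avil. In the fit of the 6 arrays of high Avil alone, the TCDD effect in males minus that in females was positive for all 10 genes. It lay between 0.47 and 1.72 with a median of 1.22, against a median of -0.004 over all genes. That fit has 1 control array in each sex, so these are sizes only.

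P2rx2 had the smallest standard errors of the set, and its values were all small differences. It averaged -0.46 ± 0.12 in exposed females and 0.01 ± 0.12 in control females (SD, n = 3 each), a difference of -0.47 with a standard error of 0.10. All 3 exposed females lay below all 3 control females, as they did for 5.51% of all genes, and 1.44% of all genes lay higher without overlap, with 0 of the 10 among them. The second P2rx2 probe gave -0.62, again with no overlap. The limma p was 0.000585 before adjustment and 1.00 after it over all genes, so the difference did not pass, and the gene was known from earlier results of these data to lie among those of small p. Within slide 3 the difference was -0.36, on the arrays of low Avil alone -0.35 and on those of high Avil alone -0.51. In males P2rx2 differed by -0.07 (limma adjusted p = 0.708), with overlap. The difference between males and females in the TCDD effect was 0.40, with a 95% interval from 0.09 to 0.70, an unadjusted p of 0.0149 and a limma adjusted p of 0.883.

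For the TCDD effect in males minus that in females, limma called 0 of the 10 genes and 0 of all 19350 (0.0%), with 863 genes at an unadjusted p below 0.05, P2rx2 being 1 of them. The differences for the other 9 genes were all positive, lowest for Adcyap1 (0.16) and highest for Scn9a, but these signs depended on the arrays. With Avil as a covariate the difference was -0.82 for Scn10a, -0.75 for P2rx3 and -0.66 for Adcyap1, and 4 of the 10 genes were above 0. The median over the 10 genes ranged from -0.58, without female TCDD 2, to 2.04, without male TCDD 3, and was also negative without female control 2 (-0.56), male TCDD 1 (-0.38) or male control 3 (-0.09). In the fit of all arrays the interval for P2rx3 ran from -7.81 to 8.44. A difference between the sexes of several log2 units could therefore not be detected with these arrays. For males minus females over both treatments limma called 0 of the 10 genes, against 4 of 19350 (0.0207%), which were Ddx3x, Eif2s3, LOC680227 and Pbdc1, all lower in males, and 682 genes had an unadjusted p below 0.05, none of them a member of the set. The sex differences lay between -0.11 for Trpv1 and 0.61 for P2rx3. With slide as a block the median sex difference of the 10 genes was -2.98, against 0.20 without it. For each gene that fit starts from males minus females on slide 2, which alone holds arrays of both sexes. It then subtracts the mean of the TCDD differences within slides 1 and 3, whose medians over the 10 genes were 3.60 and 2.39. The arrays of slide 2 are male TCDD 2 and 3 and female control 1 and 2, so on that slide sex cannot be told apart from treatment.

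The genes nearest to each member were found by the root mean square difference between levels centred on their own means over the 12 arrays. Prph and Sncg were the nearest to P2rx3 (0.14 and 0.17 on the log2 scale) and also to Scn10a (0.20 and 0.26). Scn11a lay nearest to Fgf13 (0.15) and Synm (0.18), and Scn9a to Dner (0.17) and Asic1 (0.18). For Trpv1 they were Tlx3 (0.26) and Pmfbp1 (0.33). Among the peptides, Calcb lay nearest to Dusp26 (0.08) and Dpysl4 (0.10), Tac1 to Gap43 (0.17) and Stmn2 (0.17), Calca to Cend1 (0.25) and Syngr3 (0.26), and Adcyap1 to Cpne6 (0.29) and Drgx (0.32). P2rx2 was not examined in this way, because its range over the 12 arrays was below 2.

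Other channels and peptides of sensory neurons were counted from lists, and limma called 0 genes of any list for TCDD against control over both sexes, in males or in females. Counts without overlap in each list below stand against 7.92% of all genes higher and 7.85% lower. Of 14 other TRP, acid-sensing and mechanical channels, 10 passed the filter, and 5 of these were higher and 1 lower on the arrays of high Avil without overlap. The cold channel Trpm8 was at least 6.55-fold and the acid-sensing channel Asic3 at least 9.25-fold higher there, since on the arrays of low Avil both stayed under the background limit. Both passed the filter only through the arrays of high Avil, so their place among the 5 carries no weight of its own. Asic1 differed by 2.34, and Trpv4, the channel of that list that was lower, by -0.41. Trpa1, the irritant channel, was well above background on 0 arrays. The channels of smallest p for TCDD over both sexes were Trpm3 (-0.38), Trpv4 (-0.30) and Trpm2 (0.70), each with a limma adjusted p of 0.670.

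Of 11 other sodium channel subunits, 10 passed the filter and 3 were higher without overlap: Scn7a by 2.97, Scn3b by 1.81 and Scn2a by 1.56. Those of smallest p for TCDD were Scn1a (0.53), Scn3a (0.42) and Scn2a (0.79), with a limma adjusted p of 0.670 each. The median difference between the sets was 0.65 over these subunits and 3.72 over Scn9a, Scn10a and Scn11a. Of 5 other P2X subunits, 2 passed the filter, P2rx4 with 0.05 and P2rx6 with -0.68. They differed by 0.48 and -0.38 with TCDD (limma adjusted p = 0.670 each). P2rx6 was lower on the arrays of high Avil without overlap.

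Of 14 other neuropeptides, 13 passed, and 2 were higher and 1 was lower without overlap, against 7.92% and 7.85% of all genes. Their median difference was 0.07, against 3.83 over Calca, Calcb, Tac1 and Adcyap1. Galanin (Gal) differed by 3.30, Nts by 0.45 and Grp by -0.72, the peptides of widest range over the arrays. By p for TCDD the list was led by Cartpt (0.80), Tac3 (0.79) and Cck (0.76), with limma adjusted p-values of 0.670 to 0.700. Of 11 receptors of the members' peptides, 9 passed and 2 were higher without overlap, and the median difference was -0.34. Ramp3 differed by 1.08, and Ramp1, the CGRP receptor partner, by -0.64. Tacr1, the receptor of substance P, was well above background on 4 of the 6 arrays of high Avil and on 0 of low Avil. It passed the filter only through the arrays of high Avil. The mean of its measured signal there lay 1.43-fold above the background limit of the low arrays, which is no firm bound. The receptors of smallest p for TCDD were Ramp1 (-0.60), Tacr1 (0.63) and Calcrl (-0.41), each with a limma adjusted p of 0.670. Adcyap1r1, the receptor of PACAP, was well above background on 1 array.

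**Figure D5:**
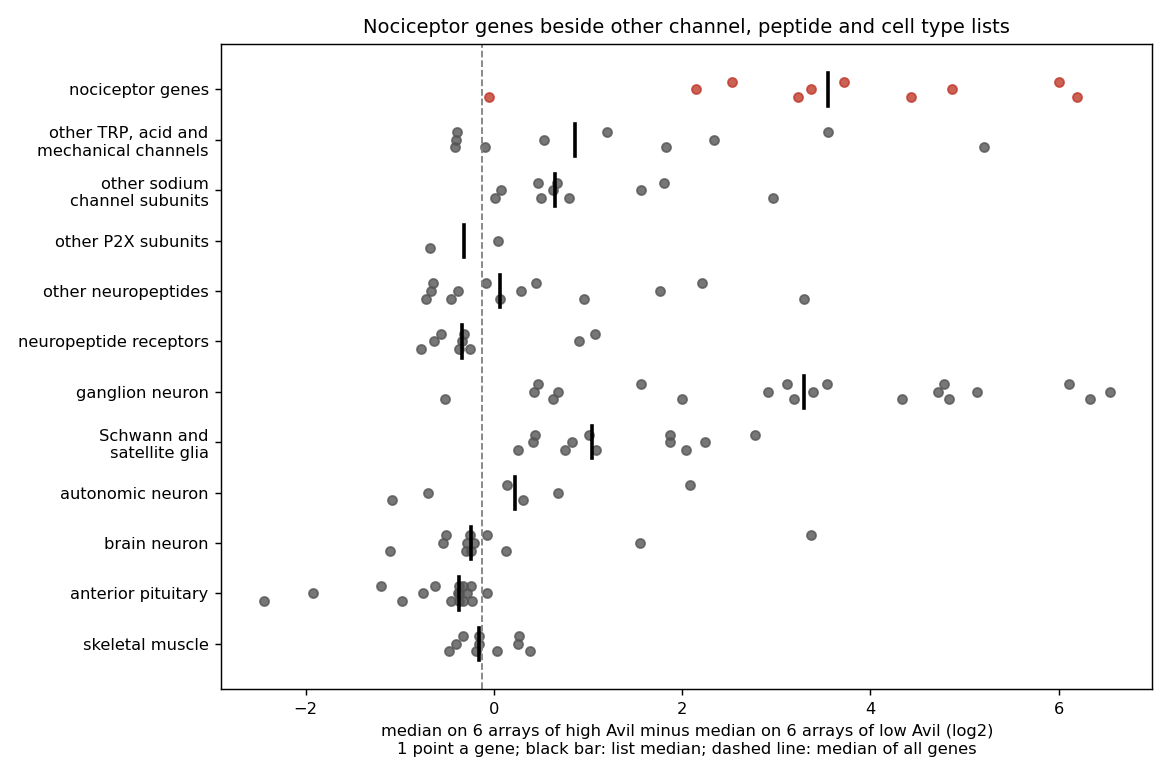
Median level on the 6 arrays of high Avil minus that on the 6 arrays of low Avil (log2), 1 point per gene and 1 line per list, with the list's median as a black bar and the median of all genes (-0.13) as a dashed line. The set of 10 genes (red) and the ganglion neuron markers lie furthest to the right, with medians of 3.55 and 3.29. Avil, by which the arrays were divided, is among the ganglion neuron markers.

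Markers of other cell types were read on the same arrays. Of 21 ganglion neuron markers, 20 passed the filter and 15 were higher on the arrays of high Avil without overlap, with a median difference of 3.29. Avil itself is among these 15, and its place was fixed in advance because it divided the arrays. The median and the summed intensity of the list also include it. Prph (6.11) was among the widest, as was Pou4f2 (6.55), which was well above background on 1 of the 6 arrays of low Avil. Pou4f1 was at least 10.6-fold higher. Neither Pou4f1 nor Pou4f2 would have passed the filter on the arrays of low Avil alone. Mrgprd was well above background on 0 arrays. The summed intensity of these markers lay between 5.45 and 6.99 on the arrays of high Avil and between 2.39 and 2.76 on those of low Avil. By treatment it lay between 2.65 and 6.99 with TCDD and between 2.39 and 6.10 in controls. The smallest p-values for TCDD were those of Runx1 (0.85), Gfra2 (0.40) and Gfra3 (1.41), with a limma adjusted p of 0.670 each. Of 13 Schwann and satellite glia markers, 12 passed and 6 were higher without overlap, with summed intensities of 4.09 to 5.52 on the arrays of high Avil and 2.78 to 3.26 on those of low Avil. By treatment they were 3.13 to 5.52 with TCDD and 2.78 to 4.37 in controls. Mbp (2.77) and Fabp7 (2.04) were among those of widest range, and Gfra1 (0.72) and Foxd3 (0.75) among those of smallest p for TCDD (limma adjusted p = 0.670 each). The part of these markers in the TCDD differences of the 10 genes was not tested beyond the values given above by set and with Avil as a covariate.

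Of 9 autonomic neuron markers, 6 passed and 2 were higher without overlap, where 7.92% of all genes were higher and 7.85% lower. The defining factor Phox2a was well above background on 0 arrays. Chrna3, among those 2, passed the filter only through the arrays of high Avil, where it was at least 3.78-fold higher. Slc18a3 differed by 0.31 and Dbh by 0.14. The summed intensity of this list lay between -0.76 and -0.08 on the arrays of high Avil and between -0.96 and -0.12 on those of low Avil. Its smallest p-values for TCDD were those of Chat (-0.90), Slc18a3 (-0.52) and Chrna3 (0.72), with limma adjusted p-values of 0.670 to 0.716. Of 15 brain and hypothalamus neuron markers, 12 passed, and 1 was higher and 1 lower without overlap, against the same shares of all genes. Their median difference was -0.24, against -0.13 over all genes. Their summed intensity was higher on the arrays of high Avil without overlap, at 1.17 to 2.39 against 0.24 to 0.78 on those of low Avil. A sum follows its brightest genes, and Slc17a6, the brightest of the list on the arrays of high Avil, had medians of 0.67 and -2.70. The sum therefore does not describe most genes of the list. Slc17a6 differed by 3.37 and Neurod6 by -0.54, and for TCDD Pmch (-1.36) and Neurod6 (1.68) were among those of smallest p, with limma adjusted p-values of 0.443 and 0.670. Of the anterior pituitary markers 0 were higher or lower without overlap among 16 with all 12 values. The differences of all 16 were negative, between -2.44 and -0.07 with a median of -0.38, against -0.13 over all genes. Gh1 (-2.44), Ghrhr (-1.92) and Fshb (-1.20) had the widest range. Gh1 (-2.39), Tshb (-0.76) and Fshb (-1.26) had their smallest p for TCDD, with limma adjusted p-values of 0.585 to 0.670. Of 10 skeletal muscle markers 0 were higher or lower without overlap, with Ckm (-0.16), Acta1 (0.27) and Myl1 (0.04) widest in range and Tnni1 (-0.59), Myl1 (-0.76) and Myod1 (-0.75) smallest in p for TCDD (limma adjusted p = 0.670 each).

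Promoters were read because 9 of the genes moved together over the arrays. RefSeq promoters, from 250 bases before to 50 after the start on GRCr8, were found for 8 of the 10 genes, as 9 sequences. The motifs searched on both strands were TNGCGTG, the xenobiotic response element bound by the aryl hydrocarbon receptor, TGACGTCA, the cyclic AMP response element, and TGTGGT, the core of the site of Runx factors. TNGCGTG was found in 4.89% of 33469 promoters and, among the 8 genes, in that of Tac1. TGACGTCA was found in 1.83% of promoters and in 0 of the 8 genes, and TGTGGT in 17.3% and in that of Trpv1. The promoter of Tac1 lies at chr4:36645333-36645632 on the plus strand, and capitals mark the matches to TNGCGTG, 138 bases before the start on the opposite strand and 89 bases before it on the same strand. That of Trpv1 lies at chr10:58349686-58349985 on the plus strand, and capitals mark the matches to TGTGGT, 226 bases before the start on the same strand and 32 bases before it on the opposite strand. The motif matches do not overlap each other, and a match is a description of the letters only.
Tac1 promoter: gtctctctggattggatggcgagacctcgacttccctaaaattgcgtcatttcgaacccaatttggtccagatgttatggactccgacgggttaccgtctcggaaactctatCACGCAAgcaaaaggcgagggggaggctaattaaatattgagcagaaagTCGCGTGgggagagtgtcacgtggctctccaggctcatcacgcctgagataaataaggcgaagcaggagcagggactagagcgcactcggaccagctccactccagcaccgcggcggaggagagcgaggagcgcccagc
Trpv1 promoter: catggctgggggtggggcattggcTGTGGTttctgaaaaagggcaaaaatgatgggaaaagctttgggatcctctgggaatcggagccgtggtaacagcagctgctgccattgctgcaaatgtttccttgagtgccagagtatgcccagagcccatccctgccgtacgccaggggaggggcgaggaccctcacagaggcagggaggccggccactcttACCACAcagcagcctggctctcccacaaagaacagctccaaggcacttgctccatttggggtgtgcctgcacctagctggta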

How the data were processed

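Total RNA of 12 samples was labelled with Cy3 and hybridised to 1 one-colour array each, per the labels' protocols. The authors deposited scanner files of spot intensity with detection flags, written by Agilent Feature Extraction 10.7.1.1 per the file headers and by 9.5.1.1 per the submitters' processing notes. They also deposited a table of intensity values whose columns all had a median of 83.5, so quantile normalization between arrays was inferred from the values. Its scale was taken as linear, and it was used as an alternative. Probe positions are on rn4 per the file headers.

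Control spots and outlier flags were left out, and log2 of the processed intensity was centred on the 75th percentile of its array. The filter asked for 3 or more of 12 arrays well above background and 10 or more values, which 22430 of 30367 probes met, and the brightest of these stood for a gene. Through a RefSeq table, 18006 probes were named by accession, 2654 by symbol and 559 by synonym, and 9148 kept the name of the file. Depth per sample is not defined for arrays, whose number limits the precision.

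The limma fit (3.58.1, R 4.3.3) took 1 mean per group over 12 arrays and a variance trend on intensity. Its p-values were adjusted by Benjamini-Hochberg over 19350 genes and called below 0.05. All adjusted p-values are from these fits. The fit was tested on simulated data with independent noise, capped well below the group standard deviations of every member but P2rx2. That test therefore does not show how the fit behaves on those members. Arrays were divided at the widest gap in Avil. For a gene under the background limit on every array of a set, a bound ("at least") was computed against the higher of its own signal and the lowest signal well above background on each array. The members and lists were chosen with earlier results of these data known. Named were all members, from each list the 3 genes of smallest p and the 3 of widest range, the 2 nearest genes of each member with a range above 2, Ahrr and Cyp1a1, and every called gene where fewer than 6 were called; some genes this rule names are not reported here. Alternatives covered background correction (normexp, offset 50), centring, normalization, the authors' table, filters, the variance trend, slide, replicate number, Avil and leaving out each array.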

Additional observations from a re-analysis of the deposited data

How the results depend on the processing

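Of the 10 genes, 0 were called in any of the 5 comparisons under any alternative tried. Leaving out the leave-one-out fits, limma's adjusted p-values of the 10 genes lay between 0.188 and 1.00 over both sexes, 0.119 and 1.00 in males, 0.486 and 1.00 in females, 0.398 and 0.999 for the difference between sexes, and 0.625 and 1.00 for males minus females. The signs of 9 genes depended on the arrays of high Avil. With Avil as a covariate, the TCDD difference over both sexes turned to -0.21 for Calca, -0.26 for P2rx3, -0.10 for Scn10a, -0.18 for Scn11a, -0.10 for Scn9a and -0.045 for Trpv1. In males it turned to -0.16 for Adcyap1, -0.38 for Calca, -0.63 for P2rx3, -0.51 for Scn10a, -0.21 for Scn11a and -0.055 for Trpv1. In females it turned to -0.047 for Calca, -0.092 for Calcb, -0.15 for Scn11a, -0.45 for Scn9a, -0.0043 for Tac1 and -0.034 for Trpv1. Without the 6 arrays of high Avil it turned over both sexes to -0.50 for Calca, -0.025 for P2rx3, -0.33 for Scn11a, -0.059 for Scn9a and -0.092 for Trpv1. In males it turned to -0.042 for Adcyap1, -0.44 for Calca, -0.18 for P2rx3, -0.067 for Scn10a, -0.16 for Scn11a and -0.36 for Trpv1, and in females to -0.55 for Calca, -0.49 for Scn11a and -0.53 for Scn9a. On the 6 arrays of high Avil alone it turned in females to -0.23 for Adcyap1, -0.30 for Calcb, -0.37 for P2rx3, -0.10 for Scn10a, -0.024 for Scn11a, -0.54 for Scn9a, -0.37 for Tac1 and -0.17 for Trpv1. Leaving out 1 array at a time, Scn9a in females ranged from -0.31, without female control 3, to 1.07, and was -0.29 without female TCDD 1. P2rx2 kept its sign for TCDD under all of these. The cause of the turned signs was not tested.

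The count of genes called over both sexes, 4 of 19350, was 15 with slide as a block, 11 with Avil as a covariate, 0 without the 6 arrays of high Avil, 1 on those alone, and 4 to 9 leaving out an array (9 when male TCDD 1 was left out, 7 when it was male TCDD 3, and 7 when it was female control 1). In males the 2 genes became 1 when all 12 arrays had to be well above background, 4 with no variance trend, 26 with slide as a block, 276 within slide 1, 4 with Avil as a covariate and 0 without or on the arrays of high Avil alone. In females the 2 became 1 with normexp, 1 under the stricter filter, and 0 within slide 3, without and on the arrays of high Avil alone. The difference between sexes, with 0 genes, had 6 with slide as a block. For males minus females the 4 became 2 with no trend, 0 with slide as a block, 7 with Avil as a covariate, 0 without and 0 on the arrays of high Avil alone, and 2 to 4 leaving out an array. Normexp, whose offset shrinks differences of dim probes, gave smaller differences between the sets of Avil, such as 1.13 for Trpv1 and 1.09 for Calcb, with 9 genes still higher.

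The labels number the arrays 1 to 3 in each group. With the replicate number as a block, 2 genes were called over both sexes and 2 for males minus females, and 0 of the 10 genes in any comparison. Deviations of arrays with the same number correlated between -0.22 and 0.44 in exposed and control males, between -0.70 and -0.37 in exposed and control females, between -0.39 and 0.65 in exposed males and females, and between 0.13 and 0.75 in control males and females. All 3 pairs exceeded 0.1 in the control males and females alone, a pair of groups that no comparison rests on by itself, so the numbers were not taken to pair samples.

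With 3 arrays a group of which 1 or 2 carry high Avil, the 95% intervals for 9 genes span several log2 units, so the TCDD difference of these genes was not measurable at this number of arrays. Signal over background limits Trpv1 on the arrays of low Avil and the calcitonin probe of Calca throughout.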
